A study of Rattus norvegicus with 5 samples.

Results

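The lung of a tolerant male Sprague Dawley rat after acute hypobaric hypoxia was set against the lung of a normoxic male by RNA sequencing. Its members are all genes in the authors' deposited table of that comparison, each symbol counted once per locus, which gave 263 genes from 264 rows, out of 1848 genes listed anywhere in the 9 distinct tables of the series. Sprague Dawley is an outbred laboratory strain, and none of the labels used here names a genotype, an agent or an age. Con(M), the normoxic male, was not screened and not exposed. Tol(M), the tolerant male, came from animals whose first gasp in a hypoxia screen came after more than 45 min, and after a week of acclimatization it was held for 1 h at 24 °C in a decompression chamber set to 9144 m. The susceptible male (first gasp before 5 min), the normal male (15 to 20 min) and the tolerant female (more than 1 h) had the same exposure and are quoted only beside the members' values. With 1 library a group, nothing below has a replicate check. The folds and FDR-corrected p-values come from the authors and set library against library, and the depth of each library is unknown. Screening, exposure and the individual animal cannot be told apart between Tol(M) and Con(M).

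Low oxygen stabilises hypoxia-inducible factor (HIF), a transcription factor that switches on genes of glycolysis, vessel growth and mitochondrial turnover. In the lung, hypoxia also constricts pulmonary arteries, and stress hormones and stretch act on endothelium and leukocytes within minutes to hours. Immediate-early genes are those transcribed first after such a stimulus, without new protein synthesis. The lung also holds airway epithelium that secretes mucus, marginated neutrophils and monocytes, and lymphoid tissue with B and plasma cells around the bronchi.

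Of the 263 genes, 123 (46.8%) were higher and 140 (53.2%) lower in Tol(M) than in Con(M) in the authors' deposited table. Only genes that changed 2-fold or more with an FDR-corrected p under 0.05 stand in it, so it says nothing of genes that it leaves out. Among the members just inside that limit were Crls1, 2.01-fold higher, and Parp1, 2.01-fold lower, in the authors' deposited table. Higher genes had a median fold of 2.62 and lower genes of 3.54. A fold of at least 10 was reached by 9 higher and 22 lower genes, and 16 of those 22 were on the list of heart muscle genes. With the heart muscle list set aside the split was 122 higher and 118 lower in the authors' deposited table. With immunoglobulin genes and the predicted genes among them also set aside it was 122 higher and 91 lower. Of these, 177 had named symbols, with 110 higher (62.1%) and 67 lower. Since the labelled tissue could only be checked through changed genes, the level of lung markers is not known here. In whole tissue, fewer cells of a type and less RNA per cell cannot be told apart. None of 24 alveolar epithelial symbols, none of 33 haemoglobin and red cell symbols and none of 5 endothelial, 3 ciliated, 3 smooth muscle or 4 fibroblast markers was listed in the authors' deposited table.

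**Figure D1:**
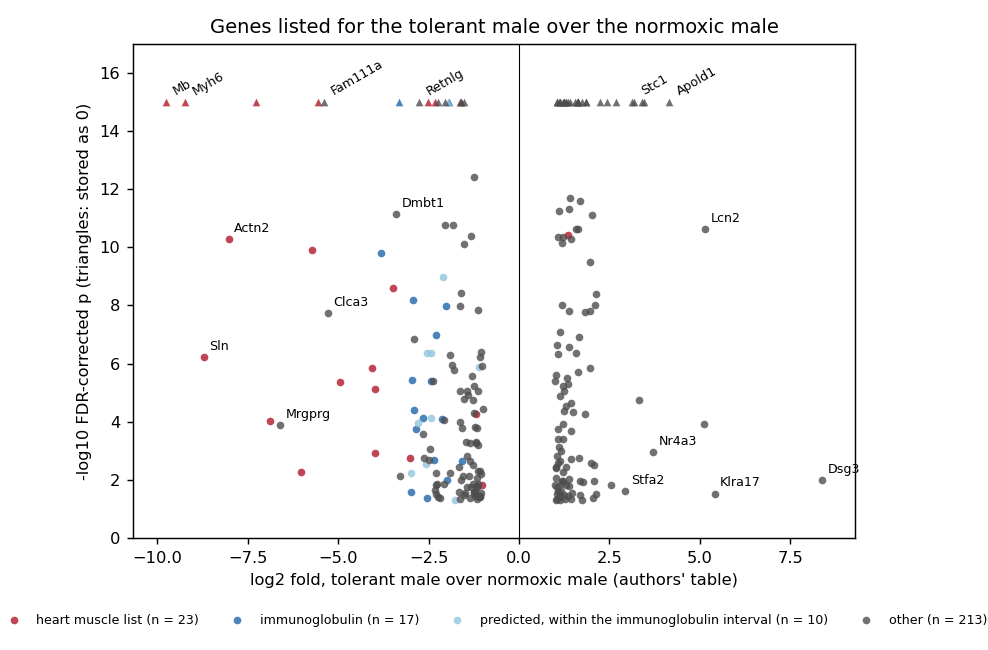
Each point is 1 gene of the authors' table, with the log2 fold of the tolerant male over the normoxic male on the x axis and the -log10 FDR-corrected p on the y axis. Triangles at 15 stand for p-values stored as 0 (46 genes), a display level only, and 2 genes listed at 0 in the tolerant male have no finite fold and are not drawn. Heart muscle genes reach furthest to the left and immunoglobulin genes all lie left of 0.

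Immediate-early and growth-arrest genes were higher in Tol(M). All 5 listed of 38 immediate-early symbols were higher, with a median log2 fold of 1.45, and so were all 4 listed of 33 feedback and growth-arrest symbols, with a median log2 fold of 1.88, against 46.8% higher over the whole authors' deposited table. The median of the immediate-early list was 3.72 with FDR-corrected p held to 0.01 or less, since Fos and Atf3 fall out by that limit. Apold1, induced early in endothelium, led them and was 17.7-fold higher by the authors' deposited table. Nr4a3, an orphan nuclear receptor, was 13.1-fold higher than in Con(M), and 2.95-fold lower in Tol(M) than in the susceptible male, in the authors' deposited tables. The AP-1 subunit Fos was 2.42-fold higher with an authors' FDR-corrected p of 0.0470. It was 8.39-fold higher in the susceptible male and 4.31-fold in the tolerant female by their own authors' deposited tables. Fos was thus lower in Tol(M) than in the susceptible male, by 3.46-fold, and higher than in the normal male, by 4.09-fold, in the authors' deposited tables of those pairs. Maff and Atf3, small bZIP transcription factors, were 2.73- and 2.26-fold higher by the authors' deposited table. Both were nearer to normoxia in Tol(M) than in the tolerant female, where the authors' deposited table gave 6.54- and 5.35-fold.

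Inhibitors that follow such a response were also among the higher genes. Cdkn1a, which encodes the cell-cycle inhibitor p21, was 10.9-fold higher, and 2.54-fold higher in Tol(M) than in the normal male, in the authors' deposited tables. Errfi1, which restrains EGF receptor signalling, was 4.19-fold higher by the authors' deposited table (FDR-corrected p = 0.00302). Trib3, a pseudokinase of the integrated stress response, was 3.22-fold and Gadd45a, a growth-arrest and DNA-damage gene, 2.24-fold higher by the authors' deposited table. Outside the lists, the authors' deposited table gave Nab2, a corepressor of Egr transcription factors, as 4.00-fold higher. Rnf144b, a ubiquitin ligase induced by p53, was 4.03-fold, and Pde4b, a phosphodiesterase that ends cAMP signals, 3.58-fold higher by the authors' deposited table. Ptp4a1, a phosphatase of the immediate-early class in regenerating liver, was 3.13-fold higher by the authors' deposited table, and Map3k6, a stress-activated kinase, 2.48-fold. All 5 listed of 30 glucocorticoid-induced symbols were higher, against 46.8% higher over the whole authors' deposited table. Their median log2 fold was 2.07, or 2.76 with p held to 0.01 or less. Of the 5, however, Cdkn1a and Errfi1 are also on the growth-arrest list, Lcn2 on the neutrophil list and Pdk4 on the fuel metabolism list. Another of the 5 was Fkbp5, a co-chaperone of the glucocorticoid receptor, which was 2.09-fold higher in Tol(M) and 4.36-fold in the normal male in the authors' deposited tables.

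The listed members of the HIF-response list were higher. Of 40 symbols on the HIF-response list 6 were listed and all 6 were higher, with a median log2 fold of 1.38, against 46.8% higher over the whole authors' deposited table. Stc1, which encodes stanniocalcin 1, a secreted glycoprotein, was 9.02-fold higher, beside 4.61-fold in the susceptible male and 7.99-fold in the tolerant female, by the authors' deposited tables. Bnip3, a mitophagy receptor (chromosome 1, 198683009 to 198700075 in the authors' coordinates), was 2.59-fold higher by the authors' deposited table. Hmox1, haem oxygenase 1, was 2.09-fold higher in Tol(M) and likewise 2.09-fold in the tolerant female by the authors' deposited tables. Pfkfb3, which makes the activator of phosphofructokinase, was 2.02-fold higher in Tol(M) and 2.11-fold higher there than in the normal male in the authors' deposited tables. The classical glycolytic enzymes and Vegfa on the same list were not among the genes of this table.

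The promoters of 3 of these genes, Bnip3, Edn1 and Pfkfb3, are printed because they hold ACGTG, the core of the hypoxia response element. The sequences are RefSeq's, on build GRCr8, and run 5′ to 3′ from 250 bases before to 50 bases after the start of the gene. Capitals mark ACGTG on either strand, and a run of 6 capitals is CACGTG, which reads as ACGTG on both strands and is also the E-box.
Bnip3, chr1:203154913-203155212, minus strand: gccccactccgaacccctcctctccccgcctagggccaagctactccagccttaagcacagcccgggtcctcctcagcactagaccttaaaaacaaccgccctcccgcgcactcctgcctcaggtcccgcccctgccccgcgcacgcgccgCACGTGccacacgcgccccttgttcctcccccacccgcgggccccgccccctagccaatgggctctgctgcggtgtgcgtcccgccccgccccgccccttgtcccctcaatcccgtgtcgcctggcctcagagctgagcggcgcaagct
Edn1, chr17:22666638-22666937, minus strand: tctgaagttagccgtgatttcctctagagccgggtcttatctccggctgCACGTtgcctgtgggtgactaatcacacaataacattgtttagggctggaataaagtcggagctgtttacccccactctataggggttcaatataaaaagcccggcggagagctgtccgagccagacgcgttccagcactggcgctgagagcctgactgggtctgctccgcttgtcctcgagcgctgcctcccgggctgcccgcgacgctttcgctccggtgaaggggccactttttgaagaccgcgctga
Pfkfb3, chr17:71944683-71944982, plus strand: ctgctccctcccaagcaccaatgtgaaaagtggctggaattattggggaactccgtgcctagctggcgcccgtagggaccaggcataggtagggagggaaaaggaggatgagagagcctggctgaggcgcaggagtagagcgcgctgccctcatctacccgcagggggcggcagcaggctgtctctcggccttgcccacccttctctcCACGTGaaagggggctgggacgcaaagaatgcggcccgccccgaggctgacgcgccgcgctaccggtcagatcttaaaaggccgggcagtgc
Among members with a promoter in that table, ACGTG was found on either strand in 22 of 89 higher genes (24.7%) and 16 of 80 lower genes (20%), beside 19.7% of all 27457 promoters. The core therefore stood about as often in the members' promoters as in promoters at large. TGACGTCA, the cAMP response element, was in 4 of the 89 higher genes (Maff, Arl5b, Epha2 and Wsb1, 4.49%) and 0 of the 80 lower genes, beside 1.91% of all promoters. TGAGTCA, the AP-1 site, was in 4 higher genes (4.49%) and 1 lower gene (1.25%), beside 4.53% of all. A match is a run of letters and not a measured binding site.

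Fuel and lipid genes changed in both directions. Pdk4, a kinase that shuts pyruvate dehydrogenase, was 3.22-fold higher and its relative Pdk2 2.23-fold lower by the authors' deposited table. Scd1, which desaturates fatty acids, was 3.08-fold higher than in Con(M) and 2.63-fold higher than in the susceptible male in the authors' deposited tables. G0s2, an inhibitor of the fat-cell lipase ATGL, was 2.64-fold, Acsl4, an acyl-CoA synthetase, 2.20-fold and the cardiolipin synthase Crls1 2.01-fold higher by the authors' deposited table. Kdsr, an enzyme of sphingolipid synthesis, was 3.52-fold higher by the authors' deposited table, and its neighbour on chromosome 13, Vps4b, 2.63-fold. A pair of enzymes of cholesterol synthesis was lower, with the squalene synthase Fdft1 at 2.58-fold and the lanosterol synthase Lss at 2.59-fold by the authors' deposited table. Neither Fdft1 nor Lss stood in any of the other tables quoted here. Bsg, a partner of lactate transporters, was 2.85-fold lower than in Con(M) and 4.76-fold lower than in the normal male in the authors' deposited tables. Retinoid and xenobiotic genes were represented by Cyp26b1, which degrades retinoic acid, and Tiparp, a target of the aryl hydrocarbon receptor. Cyp26b1 was 8.74-fold higher, beside 3.58-fold in the susceptible male, and was 4.96-fold higher than in the normal male in the authors' deposited tables. Tiparp was 2.32-fold higher by the authors' deposited table.

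Vasoactive peptides were higher and the apelin receptor lower. Of 44 symbols on the vasoactive list 4 were listed, 3 of them higher, against 46.8% higher over the whole authors' deposited table. Among its named genes outside the heart muscle list and the immunoglobulin loci 62.1% were higher. The gene of endothelin 1, Edn1, a constrictor of vessels (chromosome 17, 28303384 to 28309950), was 2.62-fold higher by the authors' deposited table (FDR-corrected p = 4.87e-12). It was 3.88-fold higher in the susceptible male and 3.68-fold in the tolerant female but 2.50-fold lower in the normal male, each over the same Con(M) library, in the authors' deposited tables. Npr3, the natriuretic peptide clearance receptor, was 4.70-fold higher in Tol(M), beside 2.95-, 3.74- and 2.84-fold in the susceptible male, normal male and tolerant female, by the authors' deposited tables. The 4 exposed libraries therefore stood on the same side for Npr3. Apln, the ligand apelin, was 3.08-fold higher and its receptor Aplnr 2.08-fold lower by the authors' deposited table. Aplnr was less far below Con(M) in Tol(M) than in the normal male, since the authors' deposited table of that pair gave it as 2.07-fold higher in Tol(M).

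Endothelial genes changed in both directions, with members of the same family on opposite sides. Of 48 endothelial and vessel symbols 6 were listed, 4 higher and 2 lower, against 46.8% higher over the whole authors' deposited table. This split is near the 62.1% higher among named genes outside the heart muscle list and the immunoglobulin loci. The SoxF transcription factors are known for arterial and lymphatic vessel development. Sox7 was 2.94-fold higher than in Con(M) and also higher than in the susceptible male (2.11-fold) and the normal male (3.15-fold) in the authors' deposited tables. Its relative Sox18 was 6.13-fold lower in Tol(M), with a second gene model at the same locus at 4.80-fold, in the authors' deposited table. Among Notch pathway genes, the ligand Dll1 was 2.22-fold and the target Heyl 3.08-fold higher, whereas Dll4, the ligand of arterial tip cells, was 2.48-fold lower by the authors' deposited table. Cd93, a receptor of endothelial cells, was 2.37-fold, the endocan gene Esm1 2.73-fold and the adhesion molecule Mcam 2.15-fold higher by the authors' deposited table. Fli1, an Ets factor of endothelium and blood cells, was 2.28-fold higher, and Gja1, the gap junction protein connexin 43, 3.25-fold higher by the authors' deposited table. Mmrn2, an endothelial matrix protein known as a ligand of CD93, was 3.18-fold lower by the authors' deposited table.

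Chemokine and sphingosine 1-phosphate genes were also listed. Cxcl12, the ligand of CXCR4, was 4.88-fold lower than in Con(M) and 4.30-fold lower than in the normal male in the authors' deposited tables. Cxcr7, its scavenging receptor, was 2.15-fold higher in Tol(M) and 2.28-fold in the tolerant female by the authors' deposited tables. Spns2, which exports sphingosine 1-phosphate from endothelium, was 2.12-fold and S1pr2, a receptor for it, 2.18-fold lower by the authors' deposited table. Id3, an inhibitor of bHLH factors and a target of BMP signals, was 3.08-fold lower than in Con(M) and 2.22-fold lower than in the susceptible male in the authors' deposited tables. Snai1, a repressor known for epithelial to mesenchymal transition, was 4.53-fold lower by the authors' deposited table (FDR-corrected p = 0.0422).

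**Figure D2:**
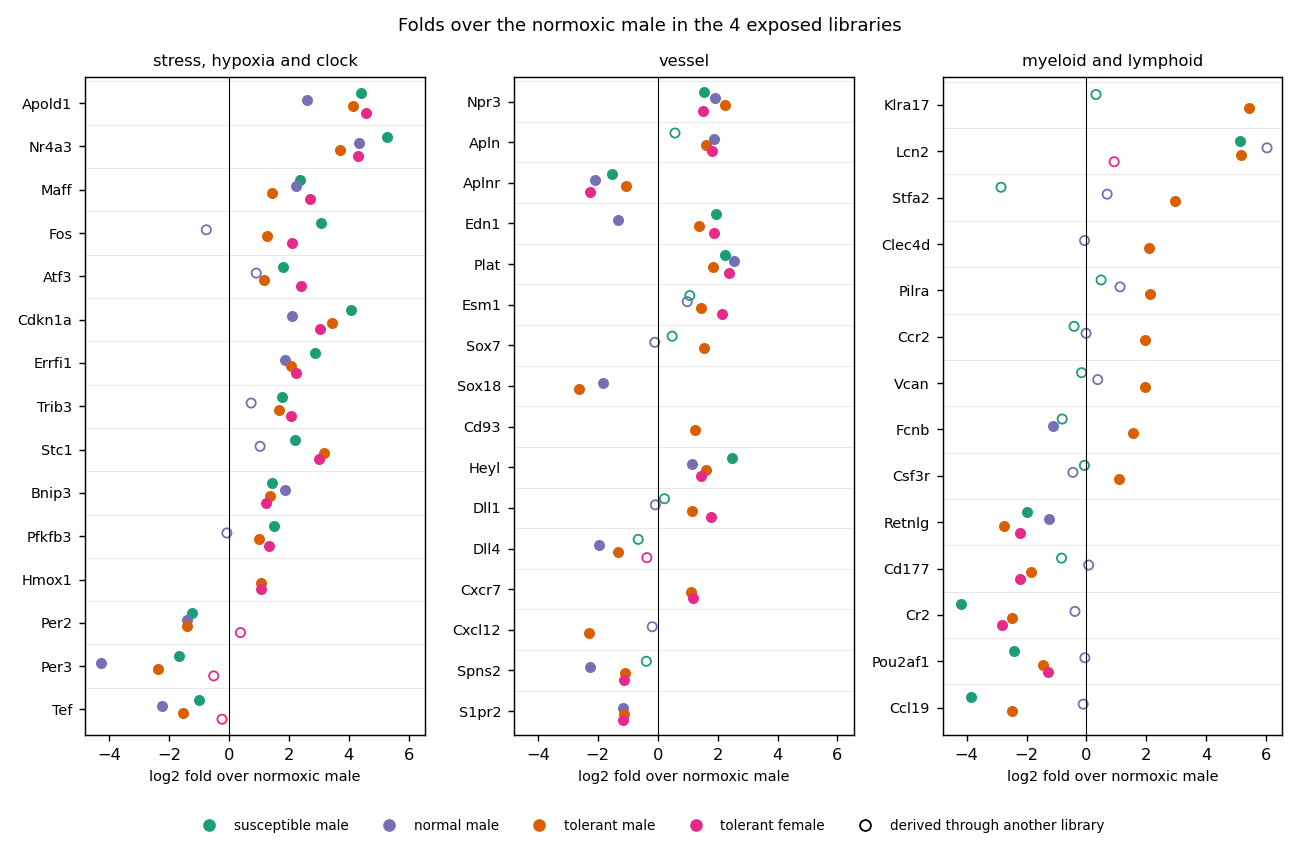
Each row is a gene and each point a library, with the log2 fold over the normoxic male on the x axis. Filled points are the authors' folds and open points were derived through another library, and a missing point means that no table gives a value. Edn1 lies right of 0 in 3 libraries and left of 0 in the normal male, while Ccr2 and Vcan lie right of 1 in the tolerant male and between -1 and 1 in the susceptible and normal males.

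The few listed genes of fibrinolysis and matrix were higher. Both listed coagulation symbols of 33 were higher, against 46.8% higher over the whole authors' deposited table. Among them was Plat, tissue plasminogen activator, at 3.60-fold higher. All 4 listed of 61 matrix symbols were higher, with a median log2 fold of 1.66, against 46.8% higher over the whole authors' deposited table. Adamts9, a protease that cleaves versican, was 6.38-fold and its substrate Vcan 3.87-fold higher by the authors' deposited table. Vcan was also higher in Tol(M) than in the susceptible male, by 4.33-fold, and the normal male, by 2.98-fold, in the authors' deposited tables. Csgalnact2 and Chst3, enzymes that build and sulphate chondroitin chains such as those of versican, were 3.55- and 2.20-fold higher by the authors' deposited table. Lox, which cross-links collagen and elastin, was 2.58-fold higher by the authors' deposited table. Tmem2, also called Cemip2, a cell-surface protein that degrades hyaluronan, was 2.32-fold higher by the authors' deposited table. Genes of extracellular signalling among the higher members were Nov, the matricellular protein CCN3, at 2.83-fold, and the growth factor gene Igf1 at 2.11-fold. Hhip, an inhibitor of hedgehog ligands, was 3.11-fold higher by the authors' deposited table. Of Wnt pathway genes, the receptor Fzd8 was 2.96-fold and the beta-catenin cofactor Bcl9l 4.99-fold lower by the authors' deposited table.

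Genes of monocytes and neutrophils stood on both sides of normoxia. Of 47 symbols on the neutrophil and myeloid list 6 were listed, 4 higher and 2 lower, against 46.8% higher over the whole authors' deposited table. That is near the 62.1% higher among named genes outside the heart muscle list and the immunoglobulin loci. The median log2 fold of the list was 1.32 and changed sign to -0.13 when only genes with an FDR-corrected p of at most 0.01 were kept. Ccr2, the chemokine receptor of inflammatory monocytes, was 3.89-fold higher than in Con(M) (FDR-corrected p = 1.50e-08), 5.17-fold higher than in the susceptible male and 3.92-fold higher than in the normal male in the authors' deposited tables. Fcnb, a ficolin of myeloid cells, was 2.96-fold higher than in Con(M), 5.19-fold higher than in the susceptible male and 6.40-fold higher than in the normal male in the authors' deposited tables. Csf3r, the G-CSF receptor, was 2.10-fold higher than in Con(M), 2.20-fold higher than in the susceptible male and 2.87-fold higher than in the normal male in the authors' deposited tables. For Ccr2, Fcnb and Csf3r the Tol(M) library thus stood above normoxia and above both other exposed males. Cd177, a neutrophil surface protein of the same list, went the other way, 3.57-fold lower than in Con(M), 2.01-fold lower than in the susceptible male and 3.76-fold lower than in the normal male by the authors' deposited tables. Retnlg, a resistin-like protein of neutrophils, was 6.79-fold lower than in Con(M) and 2.88-fold lower than in the normal male by the authors' deposited tables.

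The largest folds of this group were Lcn2, the siderophore-binding lipocalin, at 35.4-fold, and Stfa2, a cysteine protease inhibitor of the stefin family, at 7.70-fold, both higher in the authors' deposited table. Lcn2 was likewise 34.8-fold higher in the susceptible male in the authors' deposited table. It was not listed for the normal male or the tolerant female over Con(M). Derived through another library, without a p-value, it was 65.2-fold higher in the normal male and 1.90-fold higher in the tolerant female. Why a 65.2-fold difference would be missing from the authors' deposited table of the normal male is not known, so that value is uncertain. Stfa2 was 55.6-fold higher in Tol(M) than in the susceptible male in the authors' deposited table. Outside the lists, Clec4d, a C-type lectin receptor of myeloid cells, was 4.23-fold, Pilra, an inhibitory receptor of myeloid cells, 4.38-fold and Igsf6 2.74-fold higher by the authors' deposited table. Signalling genes of such cells followed, with the tyrosine kinase Lyn at 2.20-fold, the ubiquitin ligase Traf6 at 2.07-fold and the integrin Itgax at 2.03-fold higher by the authors' deposited table. The protease Adam8 was 2.20-fold and the eosinophil chemokine Ccl11 2.22-fold lower by the authors' deposited table.

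The listed B cell and plasma cell genes were lower. Of 44 B and plasma cell symbols 7 were listed, with Igj at 2 loci, and all 8 of these loci were lower, with a median log2 fold of -1.63, against 53.2% lower over the whole authors' deposited table. Cr2, the complement receptor CD21 of mature B cells and follicular dendritic cells, was 5.54-fold lower by the authors' deposited table. Pou2af1, the B cell coactivator OCA-B, was 2.72-fold lower by the authors' deposited table. Genes of antibody secretion were also lower. The joining chain gene Igj had gene models at 2 neighbouring loci, 3.09- and 2.25-fold lower, and Igha, the heavy chain of IgA, was 3.83-fold lower by the authors' deposited table. A predicted gene that RefSeq now calls Mzb1, a chaperone of plasma and marginal zone B cells, was 3.13-fold lower by the authors' deposited table. Outside the list, Creld2 and Sdf2l1, chaperones of the endoplasmic reticulum, were 2.26- and 2.16-fold lower by the authors' deposited table. No value here ties Creld2 or Sdf2l1 to antibody-secreting cells. Swap70, a signalling protein of activated B cells, was 2.40-fold lower by the authors' deposited table. Mzb1 and the other predicted genes given here under a current RefSeq symbol were named after their values were seen.

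Predicted genes on the lower side often lay in the immunoglobulin loci. The authors' deposited table had 61 predicted or unnamed genes, with 12 higher and 49 lower, and 25 of the 49 were within the intervals given next. By symbol or by RefSeq annotation, 17 genes were immunoglobulin genes, 10 on chromosome 4 (99799404 to 103541107 in the authors' coordinates), which holds the kappa light chain locus, and 7 on chromosome 6 (138246241 to 143134139), which holds the heavy chain locus. All 17 were lower, by 2.97- to 14.2-fold with a median of 5.78-fold, against 53.2% lower over the whole authors' deposited table. Of these, 14 are V segments in RefSeq. Within the same intervals 10 further predicted genes that matched no RefSeq entry were all lower too, by 2.14- to 7.96-fold, in the authors' deposited table. Each interval runs from the first to the last listed immunoglobulin gene, so these counts depend on an edge set by the members. A predicted gene 61675 bases past the chromosome 4 end, at a log2 fold of -2.66, was counted as outside. Igh-1a, a heavy chain gene, had the largest fold at 14.2-fold lower by the authors' deposited table (FDR-corrected p = 1.50e-10). V segments and constant genes have near-identical copies, and no source used here says how reads were shared between copies.

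The same 27 genes stood on different sides of normoxia in different animals. Over Con(M), the susceptible male had all 27 lower, by 5.01- to 25.9-fold, in the authors' deposited table. For the normal male 15 were listed, all higher, by 2.22- to 8.64-fold, in the authors' deposited table. The tolerant female had 9 listed higher and 2 lower in the authors' deposited table. Directly compared, 26 of the 27 were lower in Tol(M) than in the normal male, by 2.36- to 67.0-fold, in the authors' deposited table of that pair. Only 2 of the 27 differed past the limit between Tol(M) and the susceptible male, and both were higher in Tol(M), in the authors' deposited table. The joining chain was likewise higher in Tol(M) than in the susceptible male, by 2.15- and 2.73-fold for its 2 gene models, in the authors' deposited table.

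**Figure D3:**
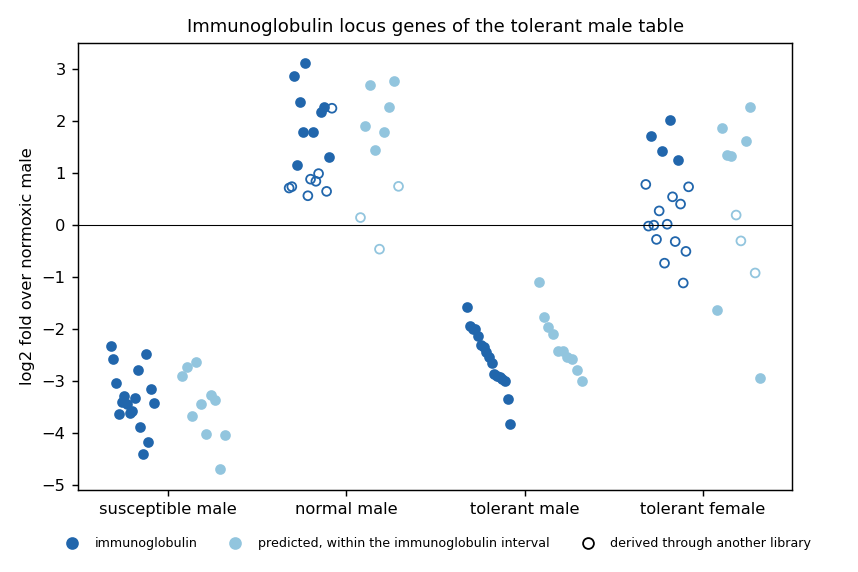
Each point is 1 of the 17 immunoglobulin genes (dark) or of the 10 predicted genes within the same intervals (light), with its log2 fold over the normoxic male on the y axis for each exposed library. Filled points are the authors' folds and open points were derived through another library. All points of the susceptible and tolerant males lie below 0, and all the authors' folds of the normal male lie above 0.

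Lymphoid chemokine and lymphocyte genes were few. Ccl19, which guides lymphocytes to T cell zones, was 5.63-fold lower than in Con(M) and 5.22-fold lower than in the normal male in the authors' deposited tables. The GTPases Gimap9 and Gimap6 of lymphocytes lie next to each other on chromosome 4 and were 2.19- and 2.08-fold lower by the authors' deposited table. None of 9 T and NK cell markers was listed. Klra17, of the Ly49 family of natural killer cell receptors, was 42.6-fold higher than in Con(M) and 34.2-fold higher than in the susceptible male in the authors' deposited tables, with an FDR-corrected p of 0.0296 in the first. Garp, now Lrrc32, a receptor that holds latent TGF-beta on regulatory T cells and platelets, was 3.10-fold higher by the authors' deposited table. Ifit3 was the single interferon-induced gene of 54 symbols, at 2.99-fold higher by the authors' deposited table. RT1-CE8, a class I histocompatibility locus with near-identical copies that RefSeq now annotates as a pseudogene, was 2.70-fold higher by the authors' deposited table.

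Genes of 4 secreted proteins of the airway lining were lower. Of 56 airway symbols 5 were listed, 4 lower and 1 higher, against 53.2% lower over the whole authors' deposited table. Clca3, which RefSeq now calls Clca1, is a secreted product of goblet cells and was 38.7-fold lower by the authors' deposited table (FDR-corrected p = 1.84e-08). It was also 10.2-, 11.6- and 32.8-fold lower in the susceptible male, normal male and tolerant female by the authors' deposited tables. Dmbt1, a mucosal scavenger receptor that binds bacteria, was 10.6-fold lower than in Con(M), beside 5.46-, 2.01- and 5.41-fold lower in the susceptible male, normal male and tolerant female, by the authors' deposited tables. A predicted gene that is Muc5b in RefSeq, a gel-forming airway mucin, was 7.54-fold lower than in Con(M), 13.3-fold lower than in the normal male and 2.47-fold lower in the susceptible male than in Con(M) in the authors' deposited tables. Another predicted gene, now Bpifb1, a secreted protein of the airway surface, was 3.50-fold lower in Tol(M), beside 5.59-fold in the susceptible male and 2.78-fold in the tolerant female, by the authors' deposited tables. The 4 lower airway genes thus encode products of mucus and surface fluid. None of the 4 club and secretory cell markers was listed. The higher member was Dsg3, a cadherin of desmosomes in stratified epithelium.

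The listed clock genes were lower. All 4 listed of 20 clock symbols were lower, with a median log2 fold of -1.57, against 53.2% lower over the whole authors' deposited table. Per3, a period gene, was 5.19-fold lower, beside 3.18-fold in the susceptible male and 19.5-fold in the normal male, in the authors' deposited tables. Per2, the repressor at the core of the clock, was 2.64-fold lower by the authors' deposited table, beside 2.35-fold in the susceptible male and 2.62-fold in the normal male. Tef, a PAR bZIP output factor that binds D-boxes, was 2.89-fold lower by the authors' deposited table, and a predicted gene that is now Hlf, another PAR bZIP factor, 3.07-fold lower. Hlf was 16.5-fold lower in the normal male in the authors' deposited table. None of these 4 genes was listed for the tolerant female over Con(M). The labels used here give no time of day for any sample, so its part in these differences was not tested. The promoters of Per2 and Tef are printed because they carry clock motifs, on the same RefSeq build and with the same window as above. Capitals in Per2 mark TTATGTAA, the D-box, and ACGTG, and capitals in Tef mark CACGTG, the E-box, which the transcription factor CLOCK binds with its partner.
Per2, chr9:99496944-99497243, minus strand: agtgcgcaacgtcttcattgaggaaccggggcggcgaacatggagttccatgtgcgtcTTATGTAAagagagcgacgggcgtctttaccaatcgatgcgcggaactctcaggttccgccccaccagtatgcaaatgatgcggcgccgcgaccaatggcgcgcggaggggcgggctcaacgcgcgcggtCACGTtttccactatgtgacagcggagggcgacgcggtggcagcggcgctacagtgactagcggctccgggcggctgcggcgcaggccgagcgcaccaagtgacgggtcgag
Tef, chr7:115206577-115206876, plus strand: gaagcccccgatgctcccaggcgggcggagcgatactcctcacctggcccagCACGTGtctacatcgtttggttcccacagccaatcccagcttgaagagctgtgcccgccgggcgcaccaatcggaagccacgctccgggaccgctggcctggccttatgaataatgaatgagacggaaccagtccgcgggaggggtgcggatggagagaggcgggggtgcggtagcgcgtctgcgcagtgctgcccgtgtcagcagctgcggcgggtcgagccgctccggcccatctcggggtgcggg
CACGTG was in 6 of 89 higher (6.74%) and 5 of 80 lower genes (6.25%), beside 6.65% of all promoters. TTATGTAA was in 1 gene of each direction (1.12% and 1.25%), beside 0.881% of all.

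Few genes of proliferation were listed, and genes of RNA processing stood on both sides. Top2a, the topoisomerase of dividing cells, was 2.23-fold and Mcm2, a subunit of the replicative helicase, 2.06-fold lower in the authors' deposited table. They were the 2 listed of 86 symbols, against 53.2% lower over the whole authors' deposited table. Incenp, a partner of Aurora B kinase in mitosis, was 2.88-fold and the poly(ADP-ribose) polymerase Parp1 2.01-fold lower by the authors' deposited table. The glycosylase Neil1, of base excision repair, was 4.17-fold lower by the authors' deposited table. Among splicing genes, Snrnp70 of the U1 particle was 2.51-fold and Luc7l3, a U1-associated protein, 3.03-fold lower by the authors' deposited table. A predicted gene now called Rsrp1, an arginine and serine rich protein, was 4.10-fold lower in Tol(M), beside 4.26-fold in the susceptible male and 4.61-fold in the tolerant female, by the authors' deposited tables. Ogt, the O-GlcNAc transferase, was 2.21-fold lower, beside 2.28-, 2.56- and 2.50-fold in the other exposed libraries, in the authors' deposited tables. In contrast, Prpf8, the core of the spliceosome, was 2.27-fold and Hnrnpl 2.31-fold higher by the authors' deposited table. The X-linked neighbours Ddx3x, an RNA helicase, and Usp9x, a deubiquitinase, were 2.48- and 2.44-fold higher by the authors' deposited table. The ribosomal protein genes Rps2, at 10.5-fold higher, and Rpl27a, at 3.73-fold lower, have many processed copies, so their values are uncertain, and Rps2 was 103-fold lower than in the normal male in the authors' deposited table.

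Several of the remaining large folds belonged to single genes. Dsg3, the higher member of the airway list, was 336-fold higher in Tol(M) in the authors' deposited table, where its FDR-corrected p was 0.00992, and it was listed at 0 in the susceptible and normal males in their tables. Fam111a, a protease known as a host restriction factor for viruses, was 42.2-fold lower, beside 2.96-, 2.64- and 3.17-fold in the susceptible male, normal male and tolerant female, by the authors' deposited tables. Directly compared, Fam111a was 14.3-fold lower in Tol(M) than in the susceptible male and 16.0-fold lower than in the normal male in the authors' deposited tables. Mrgprg, a Mas-related receptor, was 96.9-fold lower in Tol(M) and 95.6-fold in the susceptible male, but 5.56-fold in the normal male, in the authors' deposited tables. Ncoa4, the receptor for ferritin breakdown, was 2.65-fold higher than in Con(M) and by the same 2.65-fold than in the susceptible male in the authors' deposited tables. Steap4, a metalloreductase, was 2.32-fold higher than in Con(M), 2.80-fold higher than in the susceptible male and 2.76-fold higher than in the normal male in the authors' deposited tables. Il6st, the shared receptor chain gp130 of the interleukin 6 family, was 2.36-fold and Cd55, which protects cells from complement, 2.06-fold higher by the authors' deposited table.

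Heart muscle genes moved beside all of these. Of 123 heart muscle symbols 23 were listed, 22 of them lower, against 53.2% lower over the whole authors' deposited table. The median of those with a finite fold on the lower side was 22.9-fold, and Lrrc10 and Myl7 were listed at 0 in Tol(M), the Myl7 locus lying on chromosome 2 where RefSeq has the gene on chromosome 14. Of 6 defining heart markers 5 were lower. Lower values were not confined to Tol(M). Over the same Con(M) library, Myh6 was 7.75-, 8.34- and 4.51-fold lower in the susceptible male, normal male and tolerant female. Tnni3 was 7.92-, 5.72- and 4.28-fold lower in the same order, by the authors' deposited tables. Some of the lower heart genes, such as Pde4dip, were not listed for those libraries. The exception on the list was Pdlim5, a Z-disc and cytoskeletal adaptor that is not confined to muscle, at 2.58-fold higher by the authors' deposited table. Cardiac muscle is known to extend into the walls of the rat's large lung veins, and the amount of that tissue in each sample is not given. Its part in the other differences was not tested. Outside the list, Tmem38a, a cation channel of the sarcoplasmic reticulum, was also lower, at 4.75-fold by the authors' deposited table. Ckmt1, a mitochondrial creatine kinase also outside the list, was 3.73-fold lower by the authors' deposited table. No value here ties Ckmt1 to heart muscle. In the susceptible male Ckmt1 was 1.20-fold higher than in Con(M), as derived through another library.

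Higher and lower genes also differed in locus length. The median locus spanned 17795 bases for higher and 8115 bases for lower genes in the authors' deposited table. Among named genes outside the heart muscle list and the immunoglobulin loci, the medians were 21361 and 14566 bases, a ratio of 1.47. Whether locus length had a part in the folds was not tested. Chromosome 4 held 11 higher and 22 lower genes, 15 of the 22 in the immunoglobulin interval, and chromosome 6 held 4 higher and 12 lower, all 12 in the interval there. Chromosome 19 held 4 higher and 0 lower genes and chromosome 20 held 6 higher and 1 lower. Outside the immunoglobulin loci, neighbouring members within 100 kb that shared a direction were Kdsr and Vps4b, Gimap9 and Gimap6, Ddx3x and Usp9x, Myh6 and Myh7, and the 2 Igj loci, while Fzd8 and Ccny lay side by side in opposite directions.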

How the data were processed

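Lung RNA of 5 libraries, 1 per group, was sequenced after TriReagent extraction and an Illumina TruSeq preparation, per the labels' protocols. The authors deposited 11 tables, of which 9 are distinct. Each gives a signed proportional fold, a score whose negative values are minus the inverse ratio, and an FDR-corrected p-value, per the file headers. The largest storable number stands for a library at 0, as read from the values, and 46 p-values are stored as 0. For the aligner, counting, test and genome build, "not given in the sources used here" applies. No counts were in the tables, so no interval or floor could be given. Coordinates are the authors'.

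Rows of 1 symbol at overlapping coordinates were counted once through the largest fold, and folds were put on a log2 scale with Python 3.11.15 and pandas 2.3.3. Symbols were matched to RefSeq (GRCr8) by symbol, synonym or gene ID, which found 240 of 263. Of these 3 (Chrd, Susd3 and Myl7) lie on another chromosome there. Folds no table lists were derived as sums of log2 folds through another library, and have no p-value. For Tol(M) over Con(M), 47 sums through the susceptible or normal male could be set against the deposited fold, and 47 matched within 0.001. The match concerns the sign and scale of the folds. It does not check the derived values, which have no listed fold to compare. The counting and the sums were tested on simulated data. The members and the 29 gene lists were chosen with earlier results of these data known, and no test was made on them. In all, 95 members stand on at least 1 list and 10 on more than 1. Every member could be named under the rule used, first the list members and the largest folds. Predicted symbols were to be counted only, so those printed under a RefSeq symbol are exceptions. A few members are counted but not reported here by name.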

Additional observations from a re-analysis of the deposited data

Results flagged for a closer look

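Several members stood on the opposite side of normoxia in another exposed library. None of these differences was tested, since each group was 1 library, and all share the normoxic library. All folds are from the authors' deposited tables. Edn1 was 2.62-fold higher in the tolerant male and at a signed fold of -2.50 (lower) in the normal male. Fcnb was 2.96-fold higher in the tolerant male and at a signed fold of -2.16 (lower) in the normal male. Rpl27a was 3.73-fold lower in the tolerant male and 2.39-fold higher in the normal male. The elongation factor copies Eef1a1l1 and Eef1a1-ps15, whose reads may be shared with other copies, were 4.68-fold lower and 2.35-fold higher in the tolerant male and at 3.13-fold higher and a signed fold of -3.83 (lower) in the normal male. In the immunoglobulin loci, Ighl14 was 7.56-fold lower in the tolerant male, 4.49-fold higher in the normal male and 2.37-fold higher in the tolerant female. Ighl4 was 6.28-fold lower, 3.46-fold higher and 4.07-fold higher in the same order. Ighl7 was 5.05-fold lower, 8.64-fold higher and 2.69-fold higher in that order. Igkcl1 was 3.96-fold lower, 7.22-fold higher and 3.26-fold higher in that order.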

How the results depend on the processing

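No paired analysis was possible because each group is 1 library, and leaving out a library was not possible for the same reason. Counting every row gave 123 higher and 141 lower genes, and once per symbol 123 and 139. An FDR-corrected p of at most 0.01 kept 93 higher and 107 lower genes, and a fold of at least 4 kept 23 and 64. Without predicted and unnamed symbols the table held 111 higher and 91 lower genes. Setting the immunoglobulin loci aside, an alternative chosen after seeing the data, gave 123 and 113. The number of genes on at least 1 list was 78 at a p of at most 0.01 and 44 at a fold of at least 4. The median log2 fold of the neutrophil list changed sign to -0.13 at a p of at most 0.01, where Stfa2 and Csf3r drop out by that limit. At the same p the median log2 fold moved from 1.45 to 3.72 for immediate-early genes, from 2.07 to 2.76 for glucocorticoid-induced genes and from 2.17 to 3.13 for xenobiotic and retinoid genes, with fewer genes kept. No other list median changed sign under these alternatives, but 2 lists had no gene left at that p and 9 had none left at a fold of at least 4. Without counts per library, depth and its part in any fold are unknown.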
